A study of Mus musculus with 12 samples.

Results

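The 10 genes described here make and place melanin in mouse skin, or mark the melanocyte, the pigment cell that does so. They are the pigment enzymes *Tyr*, *Tyrp1* and *Dct*, the melanosome matrix genes *Pmel* and *Mlana*, the melanosome transporter genes *Oca2*, *Slc45a2* and *Slc24a5*, and the melanocyte regulators *Mitf* and *Kit*. They were chosen by name, all 10 were found among the 52636 genes of the count table, and all 10 passed the filter on low counts that left 18822 genes to test.

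The libraries came from bulk RNA-seq of full-thickness skin from 12 C57BL/6 mice aged 3 months, with 3 mice in each of 4 groups, sampled on day 14. WT mice, labelled wild type, and KO mice, labelled Cdc42-/-, were given only vehicle, normal saline containing HPMC, on shaved dorsal skin. The other two groups, WT+ZnO NPs and KO+ZnO NPs, received zinc oxide nanoparticles (ZnO NPs) in that vehicle instead. By the study's methods, deletion of *Cdc42* was made with a floxed allele and a Cre driven by the keratin K5 promoter to knock the gene out in keratinocytes, while WT mice had no Cre and carried the floxed allele on 1 or both chromosomes. Bulk KO skin therefore still holds cells with the gene. The comparisons ask how the pigment cell genes differ with the genotype, with the nanoparticles in each genotype, and whether the difference with the nanoparticles depends on the genotype.

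Melanin is made in melanosomes, membrane organelles of the melanocyte, which passes them on to keratinocytes. In mouse trunk skin, which has hair, most melanocytes sit in the hair follicles, and pigment is made while a follicle is growing a hair, in the phase called anagen. Tyrosinase starts the pathway, its relatives work on later intermediates, the Pmel protein builds the fibrils on which pigment is laid down, and transporters set the ions inside the melanosome. MITF, a transcription factor, drives most of these genes through short CATGTG elements in their promoters, and KIT is the receptor through which stem cell factor keeps melanocytes alive.

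Promoter sequences are shown because 9 of these genes, all but *Mitf*, were higher together in the samples labelled WT+ZnO NPs than in WT. In RefSeq windows on GRCm38.p6 that run from 250 bases before to 50 after an annotated start, 7 of the 10 genes had at least 1 window. The 7-base element TCATGTG, an extended form of CATGTG, was looked for on both strands, and it was found in the windows of *Tyr*, *Tyrp1*, *Dct* and *Slc24a5*. It is in capitals in the following 24-base stretches, written 5′ to 3′ on the strand of the gene, and appears as CACATGA where it lies on the opposite strand.
Tyr, chr7:87493522-87493545, minus strand: gaaaaagttagTCATGTGctttgc
Tyrp1, chr4:80834155-80834178, plus strand: tggggagggagTCATGTGctgcct
Dct, chr14:118052385-118052408, minus strand: tgcacttagggTCATGTGctaaca
Dct, chr14:118052466-118052489, minus strand: cttggctgggaCACATGAgcccaa
Slc24a5, chr2:125068103-125068126, plus strand: aggagactgctCACATGAttcagc

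Over all 32851 windows of that length, 3.77% held TCATGTG and 14.2% held the shorter CATGTG, which includes it. The shorter form was also in the window of *Oca2*. Neither form was in the 3 windows of *Mitf* or the 2 of *Kit*. The windows follow RefSeq starts, which can differ from the gene spans given below. The *Tyrp1* element lies 47 to 41 bases before its RefSeq start but inside the span given for that gene. A match in these letters is a description and shows no binding.

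Before the members, the label of each group was checked on *Cdc42*, whose level was 606 to 628 CPM (read counts scaled to library size with TMM factors) in the WT libraries and 415 to 464 in the KO libraries. It was 311 to 350 CPM in the samples labelled WT+ZnO NPs, below every KO library, which goes against their label, and 314 to 453 CPM in the KO+ZnO NPs libraries. Y-linked transcripts were present in 5 libraries, the 3 labelled WT+ZnO NPs, KO replicate 1 and KO+ZnO NPs replicate 1, and were absent or nearly so from the other 7, so that sex and treatment cannot be told apart between the samples labelled WT+ZnO NPs and the WT libraries. The study's methods name female mice for the KO model, which the Y-linked transcripts in KO replicate 1 and KO+ZnO NPs replicate 1 go against, and the labels give no sex. Total counts ran from 21076320 to 28867802 per library. The 3 mice of a group are separate animals, and the 12 numbers given for each gene are the WT, labelled WT+ZnO NPs, KO and KO+ZnO NPs replicates in turn.

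Pigment gene RNA was lowest in WT skin and highest in the samples labelled WT+ZnO NPs. The CPM of the 8 genes of the enzymes, matrix and transporters summed to 35.5, 13.1 and 32.0 in WT and to 393, 1231 and 879 in the samples labelled WT+ZnO NPs. The sums were 79.3, 42.5 and 201 in KO and 382, 478 and 285 in KO+ZnO NPs. Every KO library was above every WT library, and every KO+ZnO NPs library was above every KO library. In bulk skin, fewer cells of a type and less RNA per cell cannot be told apart, and this holds for every value given here.

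**Figure D1:**
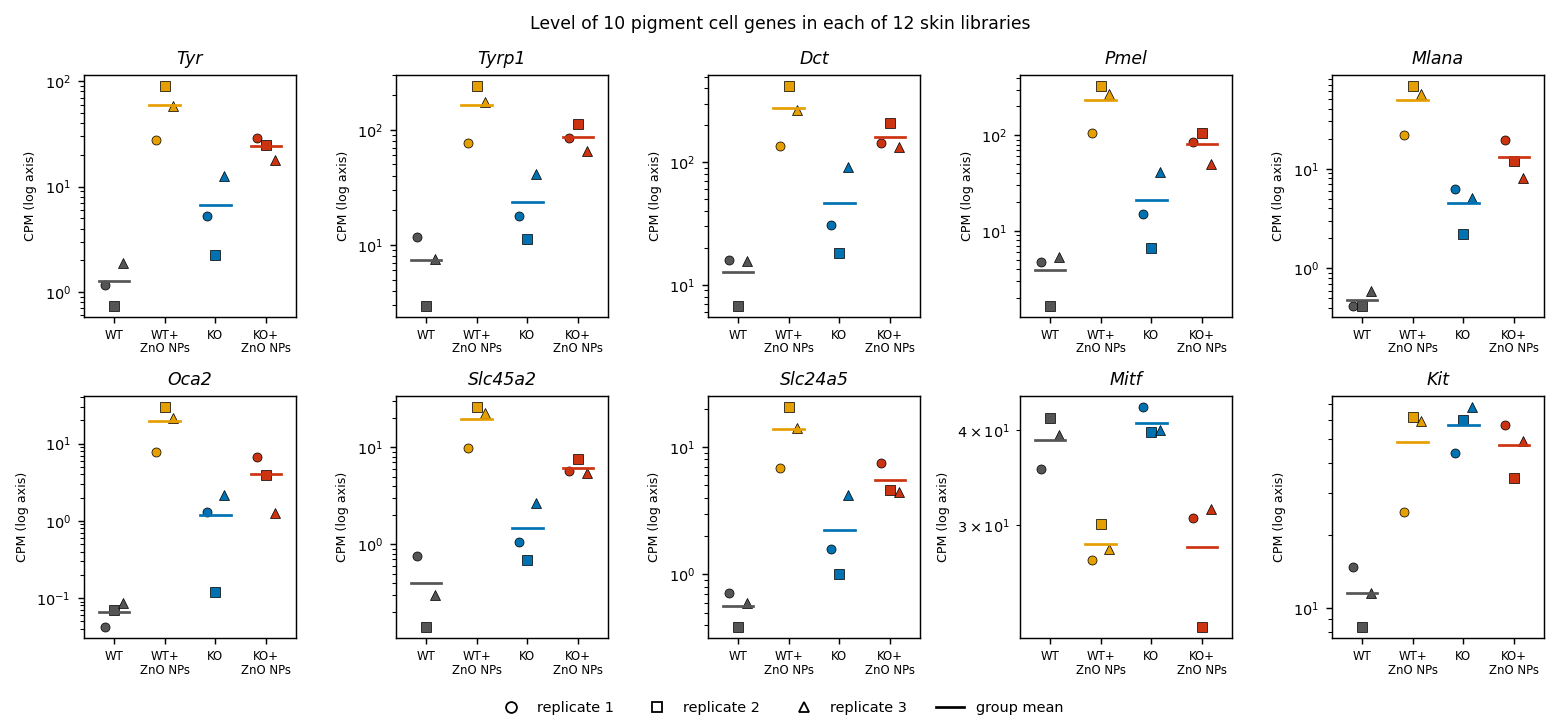
Each panel plots the CPM of 1 gene (log axis) in the 12 libraries by group, with a symbol for each replicate and a line at the group mean. Group means of the 8 genes from Tyr to Slc24a5 increase in the order WT, KO, KO+ZnO NPs, samples labelled WT+ZnO NPs, Mitf spans only 22.0 to 43.0 CPM, and Kit is lowest in the 3 WT libraries.

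*Tyr* (ENSMUSG00000004651, chromosome 7, 87424771 to 87493512, minus strand) encodes tyrosinase, the rate-limiting enzyme of melanin synthesis. It was at 1.18, 0.737 and 1.87 CPM in WT, at 27.6, 91.1 and 58.1 in the samples labelled WT+ZnO NPs, at 5.32, 2.25 and 12.5 in KO and at 29.1, 25.0 and 18.1 in KO+ZnO NPs. The groups did not overlap, except that the KO+ZnO NPs range met the lowest library labelled WT+ZnO NPs. It rose 46.9-fold in the samples labelled WT+ZnO NPs against WT (log2 fold change 5.55, SE 0.70, edgeR adjusted p = 0.000197) and 5.33-fold in KO against WT (2.41, SE 0.64, adjusted p = 0.0435), the latter call holding in 9 of 21 alternatives, with a log2 value of 1.59 without KO replicate 3. Between KO+ZnO NPs and KO the log2 difference was 1.85 (SE 0.59, adjusted p = 0.0583), which missed the threshold of 0.05.

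*Tyrp1* (ENSMUSG00000005994, chromosome 4, 80834123 to 80851719, plus strand), a tyrosinase relative that acts late in eumelanin synthesis, was at 11.8, 2.95 and 7.52 CPM in WT, at 76.6, 242 and 173 in the samples labelled WT+ZnO NPs, at 17.9, 11.3 and 41.6 in KO and at 84.2, 111 and 64.8 in KO+ZnO NPs. KO replicate 2 lay below WT replicate 1, so these groups overlapped. The gene rose 22.2-fold between the samples labelled WT+ZnO NPs and WT (log2 4.47, SE 0.66, edgeR adjusted p = 0.000486).

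*Dct* (ENSMUSG00000022129, chromosome 14, 118012790 to 118052244, minus strand) encodes dopachrome tautomerase, which works between the other two and is made early in the lineage. Its CPM were 15.8, 6.70 and 15.6 in WT, 137, 422 and 266 in the samples labelled WT+ZnO NPs, 30.9, 18.3 and 91.4 in KO and 144, 209 and 132 in KO+ZnO NPs. All libraries of the other 3 groups were above all WT libraries, and the KO+ZnO NPs libraries were above those of KO. The rise in the samples labelled WT+ZnO NPs against WT passed the test, 21.6-fold (log2 4.44, SE 0.66, edgeR adjusted p = 0.000518). The KO to WT difference of 1.88 (SE 0.60) had an adjusted p of 0.0781, and that of *Tyrp1*, 1.67 (SE 0.60), one of 0.107. With 1 library left out they ran from 0.95 to 2.28 for *Dct* and from 0.98 to 2.18 for *Tyrp1*.

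*Pmel* (ENSMUSG00000025359, chromosome 10, 128704195 to 128720238, plus strand), whose protein forms the melanosome fibrils, was at 4.78, 1.65 and 5.35 CPM in WT, at 105, 329.9 and 268 in the samples labelled WT+ZnO NPs, at 15.0, 6.63 and 41.0 in KO and at 85.3, 105 and 50.4 in KO+ZnO NPs. The 4 groups were separate, KO+ZnO NPs replicate 2 coming within 1 CPM of the lowest library labelled WT+ZnO NPs. It rose 59.9-fold in the latter libraries against WT (log2 5.91, SE 0.79, edgeR adjusted p = 0.000276). The KO to WT difference was as large as that of *Tyr*, at 2.41 (SE 0.69), with an adjusted p of 0.0557. It passed in 4 of 21 alternatives and ran from 1.46 to 2.85 with 1 library left out for *Pmel*. Of its exon bases 6.06% lie in exons of other annotated genes too, so reads there may be missing or shared.

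*Mlana* (ENSMUSG00000024806, chromosome 19, 29697824 to 29708634, plus strand) encodes a small melanosome protein that binds Pmel. It was at 0.420, 0.421 and 0.595 CPM in WT, at 21.9, 68.5 and 56.4 in the samples labelled WT+ZnO NPs, at 6.25, 2.21 and 5.06 in KO and at 19.4, 12.04 and 8.10 in KO+ZnO NPs. The 4 groups did not overlap at all. It had the clearest KO to WT difference of the 8 pigment genes, a 9.35-fold rise (log2 3.23, SE 0.56, edgeR adjusted p = 0.00866), which passed in 20 of 21 alternatives and missed without WT replicate 2 (adjusted p = 0.0517). In the samples labelled WT+ZnO NPs it rose 101-fold (log2 6.66, SE 0.62, adjusted p = 4.01e-05).

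The transporter genes were below 1 CPM in every WT library. *Oca2* (ENSMUSG00000030450, chromosome 7, 56239760 to 56536518, plus strand), which encodes the P protein, a chloride channel of the melanosome, had 1 or 2 counts in each WT library. Its CPM were 7.80, 30.1 and 21.2 in the samples labelled WT+ZnO NPs, 1.32, 0.121 and 2.16 in KO and 6.76, 3.93 and 1.26 in KO+ZnO NPs. KO replicate 2, with 3 counts, was close to WT, and KO+ZnO NPs replicate 3 lay among the KO libraries. Against a floor of 3 counts per WT library, *Oca2* was at least 165-fold higher in the samples labelled WT+ZnO NPs (edgeR adjusted p = 0.000388) and at least 10.03-fold higher in KO (adjusted p = 0.0498). The latter call held in 6 of 19 alternatives, and its fitted log2 value, 4.07 and no bound, was 3.34 without KO replicate 3.

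*Slc45a2* (ENSMUSG00000022243, chromosome 15, 11000721 to 11029233, plus strand), a transporter of the melanosome membrane, was at 0.755, 0.140 and 0.297 CPM in WT, at 9.96, 26.3 and 22.5 in the samples labelled WT+ZnO NPs, at 1.06, 0.683 and 2.69 in KO and at 5.67, 7.51 and 5.40 in KO+ZnO NPs. Apart from KO replicate 2, which was below WT replicate 1, the groups were separate. It rose 49.3-fold in the samples labelled WT+ZnO NPs against WT (log2 5.62, SE 0.71, edgeR adjusted p = 0.000188), or by 6.47 on the log2 scale without WT replicate 1. It was the one pigment gene that passed between KO+ZnO NPs and KO, with a 4.19-fold rise (log2 2.07, SE 0.60, adjusted p = 0.0427), a call that held in 8 of 20 alternatives, with a log2 value of 2.82 without KO replicate 3.

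*Slc24a5* (ENSMUSG00000035183, chromosome 2, 125068124 to 125088677, plus strand), a potassium-dependent sodium and calcium exchanger, was at 0.713, 0.386 and 0.595 CPM in WT, at 6.80, 20.8 and 14.1 in the samples labelled WT+ZnO NPs, at 1.57, 1.00 and 4.18 in KO and at 7.46, 4.59 and 4.44 in KO+ZnO NPs. WT was below all other groups, and KO was below KO+ZnO NPs. The rise in the samples labelled WT+ZnO NPs was 24.5-fold (log2 4.61, SE 0.62, edgeR adjusted p = 0.000285). Of its exon bases 39.5% lie in exons of other genes too, the highest share among the members.

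*Mitf* (ENSMUSG00000035158, chromosome 6, 97807052 to 98021349, plus strand) went the other way from the genes it is known to drive. Its CPM were 35.5, 41.5 and 39.4 in WT, 26.9, 30.1 and 27.9 in the samples labelled WT+ZnO NPs, 43.0, 39.8 and 40.0 in KO and 30.6, 22.0 and 31.4 in KO+ZnO NPs. All 6 libraries of the groups given ZnO NPs were below all 6 of the vehicle groups. *Mitf* fell by 0.46 on the log2 scale in the samples labelled WT+ZnO NPs against WT (SE 0.14, edgeR adjusted p = 0.0233) and by 0.55 in KO+ZnO NPs against KO (SE 0.14, adjusted p = 0.0297). It differed by 0.08 between KO and WT (SE 0.14, adjusted p = 0.780).

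*Mitf* is not particular to melanocytes, since macrophages, mast cells and other cells of skin use other promoters of the gene, and the counts do not separate its transcripts. The 8 macrophage genes measured beside it summed to 4030.3 to 5321 CPM in WT and 249 to 529 in the samples labelled WT+ZnO NPs, and to 2239 to 3964 in KO and 448 to 1024 in KO+ZnO NPs, with 8 of 8 lower in both comparisons, where 22.1% and 8.09% of all genes were lower, none at 0 in a group, and *Lyz2* and *C1qb* the most abundant. For 3 of these 8 genes the edgeR interaction described below was positive and passed, so they fell less in KO. Over the 8 its median was 1.89, and 5.08% of all genes were called positive. The part of macrophages and other cells in the level of *Mitf* was not tested. Per kilobase of exon, *Mitf* was the most abundant of the 10 members in WT (6.26 ± 0.491 CPM per kilobase, SD, n = 3) and the least abundant in the samples labelled WT+ZnO NPs (4.57 ± 0.264).

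The fall of *Mitf* was small enough to depend on the settings. In the samples labelled WT+ZnO NPs it passed in 14 of 20 alternatives, and missed with library size alone as the scaling (-0.35, edgeR adjusted p = 0.0999), with Y-linked transcripts as a covariate (-0.61, adjusted p = 0.0605) and without WT replicate 2 or 3 or the library labelled WT+ZnO NPs replicate 1 or 3 (highest adjusted p 0.0808). In KO+ZnO NPs against KO it passed in 15 of 21, and missed without any 1 of the KO libraries or KO+ZnO NPs replicate 2 (highest adjusted p 0.0895), with the 6 libraries alone (0.113) and in the libraries without Y-linked transcripts (-0.57, 0.0995).

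*Kit* (ENSMUSG00000005672, chromosome 5, 75574916 to 75656722, plus strand) was at 14.8, 8.35 and 11.5 CPM in WT, at 24.9, 61.9 and 59.6 in the samples labelled WT+ZnO NPs, at 43.7, 60.0 and 68.2 in KO and at 57.5, 34.6 and 49.3 in KO+ZnO NPs. WT was separate from the other 3 groups, which overlapped each other. *Kit* rose 4.96-fold in KO against WT (log2 2.31, SE 0.36, edgeR adjusted p = 0.00515) in all 21 alternatives, and 4.23-fold in the samples labelled WT+ZnO NPs (log2 2.08, SE 0.36, adjusted p = 0.00117) in all 20. With KO+ZnO NPs against KO, its difference was -0.28 (SE 0.34, adjusted p = 0.602).

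Unlike the pigment genes, *Kit* is also used by mast cells. The 12 mast cell genes summed to 279 to 469 CPM in WT, 565 to 1059.6 in KO, 52.5 to 118 in the samples labelled WT+ZnO NPs and 102 to 864 in KO+ZnO NPs, with *Mcpt4* and *Cma1* the most abundant and none at 0 in a group. In KO against WT 1 of the 12 was called, higher, where 4.61% of all genes were, and in the samples labelled WT+ZnO NPs 7 were lower, where 22.1% of all genes were, while *Kit* was higher in both. KO+ZnO NPs against KO had 2 of the 12 lower, where 8.09% of all genes were, with *Kit* at -0.28. Against the samples labelled WT+ZnO NPs, KO+ZnO NPs had 1 higher, where 2.13% of all genes were, with *Kit* at -0.05. How much of *Kit* came from each cell type was not tested.

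KO against WT had 4 of the 10 members higher, *Tyr*, *Mlana*, *Oca2* and *Kit*, and none lower, where 4.61% of all genes tested were called higher. The median log2 difference of the members was 2.15, against 0.01 over all genes. The groups did not overlap for 7 members, all higher, where 38.5% of all genes had groups that did not overlap in either direction. Since 3 against 3 samples cannot give an exact permutation p below 0.1, all single-gene calls rest on the fit across genes.

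Those 4 calls are not equally firm. With the 5 libraries that hold Y-linked transcripts left out, *Kit* at 2.47 (edgeR adjusted p = 0.0162) and *Mlana* at 2.92 (0.0277) passed, while *Tyr* at 2.56 had an adjusted p of 0.0983 and *Oca2* one of 0.121. Between 1 and 7 members were called when 1 library was left out, with 1 without WT replicate 2, 7 without KO replicate 2, and 2 without WT replicate 1 or 3, KO replicate 1 or 3, KO+ZnO NPs replicate 1 or 2, or the library labelled WT+ZnO NPs replicate 3. Over all genes, the 1540 called became 377 without WT replicate 2 and 917 without KO replicate 2. KO replicate 2 was the lowest KO library for all 8 pigment genes. DESeq2 called 9 of the members and 3003 of all genes.

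**Figure D2:**
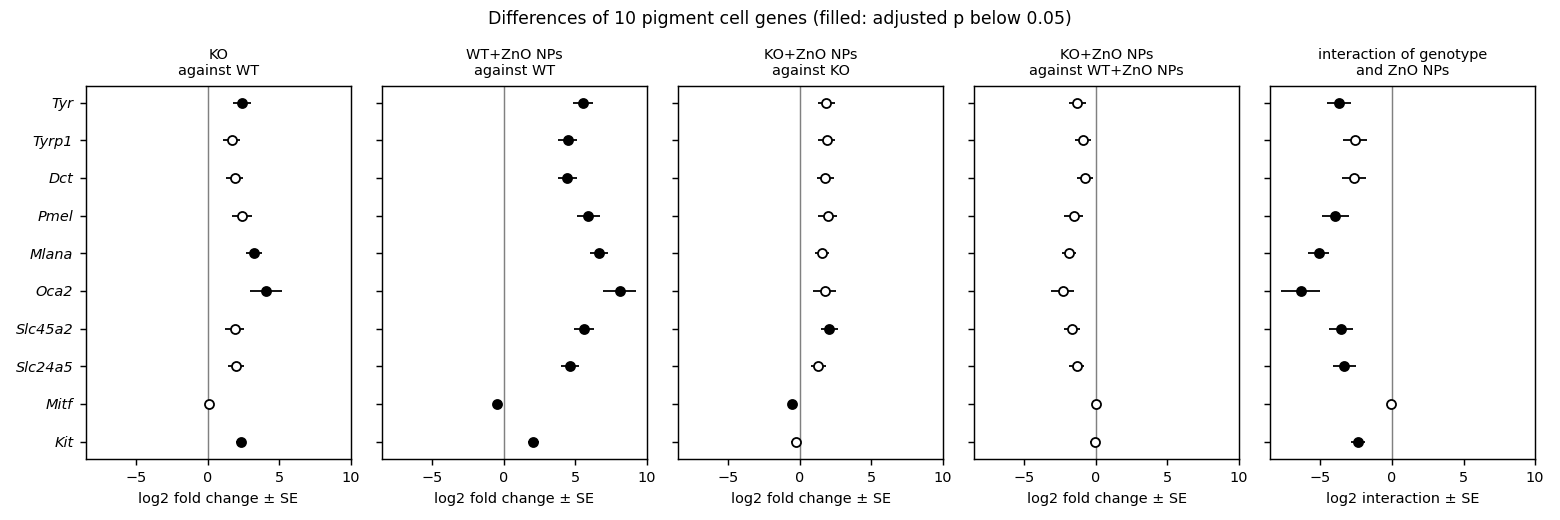
Points are log2 fold changes of each gene (x axis) with bars of 1 SE, in 1 panel for each comparison, and filled points passed an adjusted p of 0.05. All 10 points are filled for the samples labelled WT+ZnO NPs against WT, with Mitf alone to the left of 0, and none for KO+ZnO NPs against them; values of Oca2 that involve WT rest on 1 or 2 counts per WT library and are not bounds.

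In the samples labelled WT+ZnO NPs, 9 members were higher than in WT and 1, *Mitf*, was lower, where 20.8% of all genes were called higher and 22.1% lower. The median difference was 5.08 (all genes 0.06), and the groups did not overlap for any of the 10, against 59.4% of all genes. The 9 higher members passed in every alternative that tested them. With Y-linked transcripts as a covariate the rise of *Tyr* was 5.53 (edgeR adjusted p = 0.00542) and that of *Mlana* went from 6.66 to 5.80 (0.00133), but the 3 WT libraries lack these transcripts and the 3 samples labelled WT+ZnO NPs hold them, so the covariate is set by KO replicate 1 and KO+ZnO NPs replicate 1 and does not separate sex from treatment here. Library size alone moved the median of all genes by 0.11 in this comparison.

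KO+ZnO NPs against KO gave 2 calls, *Slc45a2* higher and *Mitf* lower, where 6.57% of all genes were higher and 8.09% lower. The other 7 pigment genes differed by 1.29 (*Slc24a5*, SE 0.54) to 1.94 (*Pmel*, SE 0.66), with edgeR adjusted p from 0.0536 to 0.169. With 1 library left out *Slc24a5* ran from 0.95 to 2.09, *Tyr* from 1.44 to 2.67 and *Pmel* from 1.53 to 2.89. For 7 members the KO+ZnO NPs libraries were all higher and for *Mitf* all lower, where 34.7% of all genes had separate groups. The median difference was 1.76, and 0.01 over all genes.

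The calls of this comparison moved with single libraries, for the members and over all genes. Without KO replicate 3, the highest of its group for 7 of the 8 pigment genes, 6 members were called, all higher, and without KO replicate 1, KO replicate 2 or KO+ZnO NPs replicate 2 edgeR called 0, with 7, 7 and 8 members at an unadjusted p below 0.05. It was 5 without the library labelled WT+ZnO NPs replicate 1, 3 without WT replicate 2, and 1 without WT replicate 3, KO+ZnO NPs replicate 1 or the library labelled WT+ZnO NPs replicate 2 or 3. Over all genes, the 2759 called became 1055 without KO replicate 3, 2096 without KO replicate 1 and 451 without KO replicate 2. Without KO+ZnO NPs replicate 2 they became 1484. With the Y-linked libraries left out edgeR called 0 members, with 3 at an unadjusted p below 0.05, and 2370 of all genes. *Slc45a2* differed by 1.95 there. DESeq2 on all libraries called 7 members and 4236 of all genes.

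KO+ZnO NPs against the samples labelled WT+ZnO NPs gave 0 members called by edgeR, with 6 at an unadjusted p below 0.05 and 3 called by DESeq2, *Mlana*, *Oca2* and *Slc45a2*, all lower. Of all genes edgeR called 3.28% in either direction, and 4667 of the 18822 tested had an unadjusted p below 0.05. DESeq2 called 2287 of all genes. The 10 differences ran from -2.30 (*Oca2*, SE 0.80, adjusted p = 0.114) to -0.01 (*Mitf*, SE 0.14, adjusted p = 0.964). *Pmel*, *Mlana*, *Oca2* and *Slc45a2* had groups that did not overlap, as did 23.7% of all genes. Leaving out the library labelled WT+ZnO NPs replicate 1 gave 1 member called, *Mlana*, and 304 of all genes.

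The interaction, which is the log2 difference with ZnO NPs in KO less that in WT, was negative and passed for 7 of the 10 members, where 3.59% of all genes were called negative. They were *Tyr*, *Pmel*, *Mlana*, the 3 transporter genes and *Kit*, the median over the 10 was -3.44 (all genes 0.02), and *Mlana* had the firmest value among them (-5.12, SE 0.74, edgeR adjusted p = 0.00582), which passed in all 19 alternatives. *Tyrp1* at -2.59 (SE 0.83, 0.0742) and *Dct* at -2.65 (SE 0.83, 0.0709) missed. With 1 library left out these ran from -3.09 to -1.90 and from -3.07 to -1.71 in turn. *Mitf*, at -0.09 (SE 0.20, 0.809), was lower with ZnO NPs by a like amount in both genotypes. With Y-linked transcripts as a covariate only *Mlana* passed, while the values of the other 6 stayed negative, at -3.69 for *Tyr* (-3.71 without it), -4.18 for *Pmel* (-3.96), -3.93 for *Slc45a2* (-3.56), -3.25 for *Slc24a5* (-3.33), -2.38 for *Kit* (-2.36) and -5.64 for *Oca2* (-6.38). The WT side of each value rests on the libraries whose *Cdc42* goes against their label. Without KO replicate 3 the interaction was -2.88 for *Tyr*, -3.01 for *Pmel*, -2.80 for *Slc45a2*, -2.52 for *Slc24a5* and -5.64 for *Oca2*, which was -7.00 without KO+ZnO NPs replicate 1, and *Slc45a2* was at -4.40 without WT replicate 1. When 1 library was left out, 1 to 8 members passed, with 1 without WT replicate 2, KO replicate 3 or the library labelled WT+ZnO NPs replicate 3, 2 without WT replicate 3 or KO replicate 1, 3 without WT replicate 1 or the library labelled WT+ZnO NPs replicate 2, 4 without KO+ZnO NPs replicate 3 and 8 without KO replicate 2. Over all genes, the 1633 called became 461 without WT replicate 2, 641 without KO replicate 3 and 1259 without KO replicate 2. With the covariate they became 125.

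Within groups the pigment genes mostly shared their lowest library, and less so their highest. The library labelled WT+ZnO NPs replicate 1 was the lowest of its group for 8 of the 8 genes and replicate 2 the highest for 8. KO replicate 2 and KO+ZnO NPs replicate 3 were each the lowest of their groups for 8. WT replicate 2 was the lowest for 6. KO replicate 3 was the highest of its group for 7, but in WT the highest was replicate 1 for 4 genes and replicate 3 for 4, and in KO+ZnO NPs replicate 1 for 4 and replicate 2 for 4. The highest library held 2.72 times the lowest in the summed CPM of WT, 3.13 times among those labelled WT+ZnO NPs, 4.72 times in KO and 1.68 times in KO+ZnO NPs.

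Their balance was not the same in WT and in the samples labelled WT+ZnO NPs. As a share of the 8 genes' summed CPM per kilobase, *Pmel* made up 22.3% ± 3.56 in WT, 26.0% ± 4.49 in KO, 30.1% ± 2.83 in KO+ZnO NPs and 36.6% ± 1.68 (SD, n = 3 each) in the samples labelled WT+ZnO NPs. The *Pmel* shares of KO, from 22.1% to 30.9%, overlapped those of WT. *Mlana* went from 7.09% ± 3.57 in WT to 16.6% ± 0.878 in the samples labelled WT+ZnO NPs, with 15.6% ± 7.19 in KO and 10.9% ± 3.79 in KO+ZnO NPs. The early enzyme *Dct* took 29.3% ± 2.38 in WT and 16.8% ± 1.74 in the samples labelled WT+ZnO NPs, and *Tyrp1* 33.4% ± 6.92 and 20.8% ± 0.560. In KO and KO+ZnO NPs the means were 23.5% and 24.3% for *Dct* and 26.7% and 26.9% for *Tyrp1*. For these 4 genes the shares of WT and of the samples labelled WT+ZnO NPs did not overlap, and shares of a whole move against each other by construction.

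**Figure D3:**
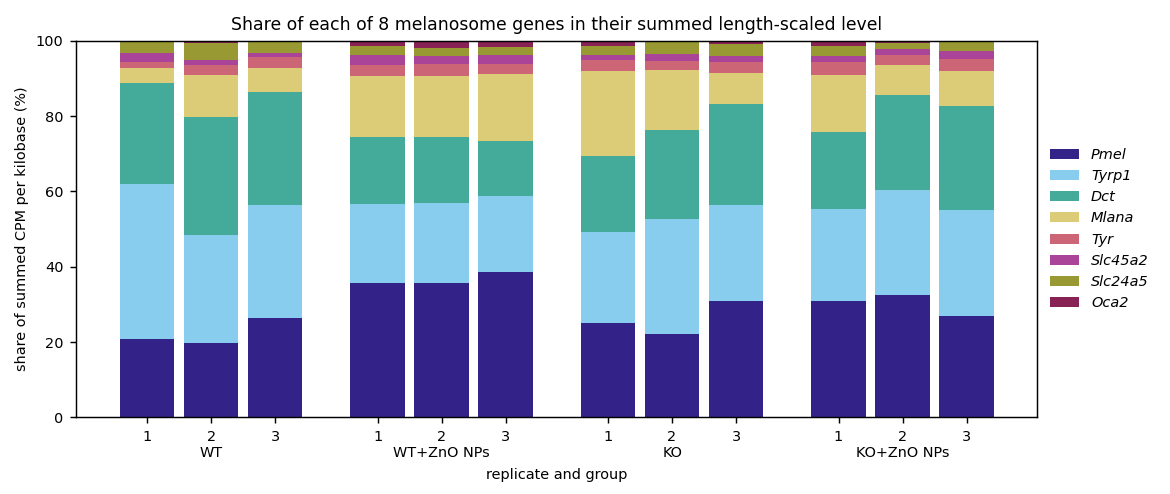
Each bar is 1 library and stacks the share (%) of 8 genes in their summed CPM per kilobase of exon. Pmel takes 35.6% to 38.5% in the 3 samples labelled WT+ZnO NPs and 19.8% to 26.4% in WT, while Dct takes 14.8% to 18.0% and 26.7% to 31.3%.

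Signals that act on melanocytes were followed in a list of 26 genes. In the samples labelled WT+ZnO NPs 11 of them were higher and 5 lower than in WT, with a median of 0.42, and in KO 3 were higher and 1 lower (0.44). KO+ZnO NPs against KO had 2 higher and 4 lower (0.04), KO+ZnO NPs against the samples labelled WT+ZnO NPs 1 higher (-0.12), and the interaction 4 negative (-0.38). Over all genes the shares called higher and lower were 20.8% and 22.1% in the samples labelled WT+ZnO NPs, 4.61% and 3.58% in KO, 6.57% and 8.09% in KO+ZnO NPs against KO, 2.13% and 1.16% in KO+ZnO NPs against the samples labelled WT+ZnO NPs, and 5.08% positive and 3.59% negative for the interaction. The 5 lower genes of the first comparison are close to the share over all genes, and these shares are the background for the counts of the lists that follow too.

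The endothelin branch split into ligand and receptor. *Edn3*, the endothelin that promotes melanocyte growth, was at 1.55, 1.23 and 1.15 CPM in WT and 8.0, 15.2 and 14.0 in the samples labelled WT+ZnO NPs, a rise of 3.24 (SE 0.40, edgeR adjusted p = 0.000177). It was at 1.19, 1.25 and 2.29 CPM in KO and 4.28, 9.57 and 5.92 in KO+ZnO NPs, a rise of 2.06 (SE 0.39, adjusted p = 0.0109). Its receptor *Ednrb*, also made by other skin cells, ranged from 16.6 to 287 CPM with overlapping groups and no call.

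*Kitl*, the stem cell factor that KIT binds, was at 81.5, 114 and 98.2 CPM in WT and 41.2, 72.6 and 74.0 in the samples labelled WT+ZnO NPs. It fell by 0.64 (SE 0.24, edgeR adjusted p = 0.0470), the opposite direction from *Kit*. In KO it was at 56.1, 54.6 and 65.6 CPM, below all WT libraries, with a difference of -0.74 (SE 0.24) and an adjusted p of 0.0805. KO+ZnO NPs had 55.6, 48.5 and 75.5 CPM.

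In the melanocortin branch, the group means of the receptor *Mc1r* had the same order as those of the pigment genes. It was at 0.252, 0.351 and 0.382 CPM in WT, 3.76, 13.2 and 9.22 in the samples labelled WT+ZnO NPs, 0.638, 0.763 and 1.45 in KO and 3.36, 2.32 and 4.75 in KO+ZnO NPs, and rose by 4.70 (SE 0.55, edgeR adjusted p = 0.000133) and by 1.87 (SE 0.49, adjusted p = 0.0312) with ZnO NPs in the groups labelled WT and KO. Within KO+ZnO NPs *Mc1r* was highest in replicate 3, the lowest library of that group for all 8 pigment genes. *Asip*, its antagonist agouti, named nonagouti in the annotation, was at 3.68, 2.10 and 1.94 CPM in the samples labelled WT+ZnO NPs and 6.59, 9.47 and 5.40 in KO+ZnO NPs, a rise of 1.47 (SE 0.32, adjusted p = 0.0396). *Pomc*, source of the agonist, stayed between 0.0873 and 0.552 CPM with no call.

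**Figure D4:**
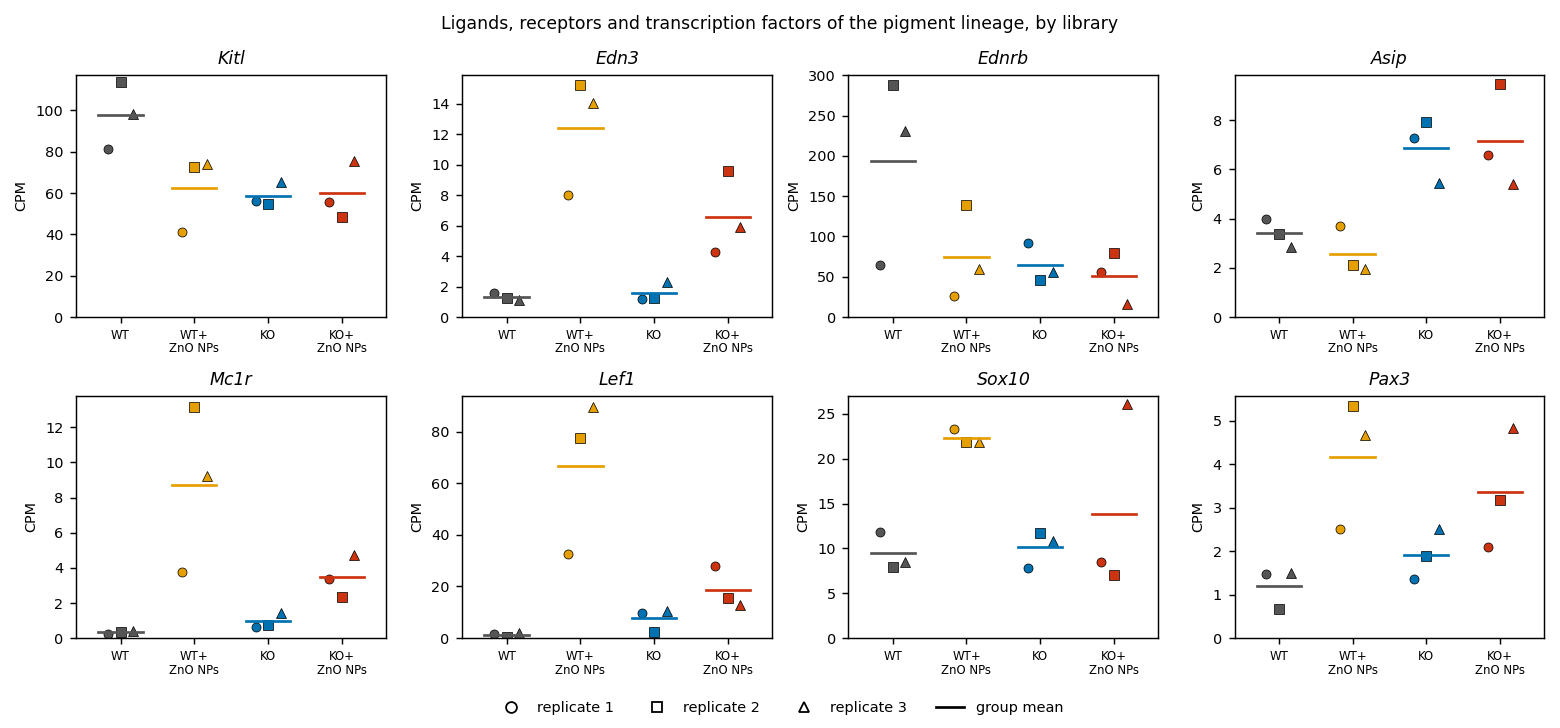
Each panel plots the CPM of 1 gene (linear axis from 0) in the 12 libraries, with the replicates as symbols and the group mean as a line. Group means of Edn3, Mc1r and Lef1 are highest in the samples labelled WT+ZnO NPs, Kitl is highest in WT, and Asip is at 5.40 CPM or more in all 6 libraries of KO mice and 3.99 or less in the others.

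Of the transcription factors, *Tfap2a*, an AP-2 factor of neural crest and epidermis, had 15.5 to 21.7 CPM in WT, 38.3 to 58.2 in KO, 60.0 to 78.4 in KO+ZnO NPs and 103 to 121 in the samples labelled WT+ZnO NPs. Its 4 ranges did not overlap. It rose in KO (1.35, SE 0.18, edgeR adjusted p = 0.00234) and in the samples labelled WT+ZnO NPs (2.55, SE 0.19, 1.73e-05), and its interaction was -2.02 (SE 0.25, 0.00323). *Lef1*, a Wnt effector of the hair matrix and of melanocytes, was at 0.562 to 2.0 CPM in WT, 2.45 to 10.7 in KO, 13.0 to 27.8 in KO+ZnO NPs and 32.5 to 89.5 in the samples labelled WT+ZnO NPs, with rises against WT of 2.49 in KO (SE 0.64, 0.0405) and 5.61 in the latter (SE 0.71, 0.000197), and an interaction of -4.31 (SE 0.87, 0.0187).

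The lineage factors *Sox10* and *Pax3*, both upstream of *Mitf*, moved less than the pigment genes. *Sox10* had 11.9, 7.97 and 8.54 CPM in WT and 23.3, 21.9 and 21.8 in the samples labelled WT+ZnO NPs, a rise of 1.24 (SE 0.42, edgeR adjusted p = 0.0358), and *Pax3* 1.47, 0.667 and 1.49 against 2.52, 5.35 and 4.67, a rise of 1.79 (SE 0.45, 0.00863). Neither passed in another comparison. KO+ZnO NPs replicate 3 held the highest *Sox10* of the 12 libraries, at 26.1 CPM. *Sox10* is also used by Schwann cells. Of their list, 7 genes, with *Mbp* and *Egr2* the most abundant, summed to 292, 209 and 226 CPM in WT, 404, 333 and 193 in the samples labelled WT+ZnO NPs, 205, 232 and 203 in KO and 221, 292 and 390 in KO+ZnO NPs, so KO+ZnO NPs replicate 3 was highest of its group in both. Of the 7, none were at 0 in a group and 1 was called, higher in the samples labelled WT+ZnO NPs than in WT, and their part in *Sox10* was not tested. *Erbb3*, a neuregulin receptor of the crest lineages, rose by 0.75 in KO (SE 0.19, 0.0396).

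*Hgf*, a growth factor for melanocytes made by the stroma, went against the pigment genes. It fell by 2.10 in KO+ZnO NPs against KO (SE 0.45, edgeR adjusted p = 0.0162), from 12.7, 19.6 and 18.9 CPM to 6.33, 3.43 and 2.18. *Mgrn1*, a ubiquitin ligase of the melanocortin pathway, fell by 0.46 in the same comparison (SE 0.09, 0.0140).

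A list of 13 other melanocyte markers had 10 higher and none lower in the samples labelled WT+ZnO NPs (median 1.46; 20.8% of all genes higher), 3 higher in KO (1.52, or 1.34 with genes at 3 counts or fewer per WT library set to their bounds), 1 higher and 1 lower in KO+ZnO NPs against KO (0.81), 0 by edgeR in KO+ZnO NPs against the samples labelled WT+ZnO NPs (-0.64, with 4 at an unadjusted p below 0.05 and 2 called by DESeq2) and 5 negative interactions (-1.66). *Gpr143*, a receptor of the melanosome membrane, was at 0.0420 to 0.0850 CPM in WT and 1.96, 6.76 and 4.39 in the samples labelled WT+ZnO NPs, at least 36.6-fold higher (edgeR adjusted p = 0.000419). *Trpm1*, a channel gene that MITF is known to drive, rose from 2.52, 2.67 and 2.97 CPM to 49.7, 162 and 108 there (log2 5.29, SE 0.76, 0.000394). *Mcoln3*, a lysosomal channel, rose in KO against WT (2.25, SE 0.49, 0.0218) and had an interaction of -2.89 (SE 0.66, 0.0283).

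*Gpnmb* encodes a glycoprotein of melanosomes and of macrophages. It had 317, 1553 and 1124 CPM in KO and 134 to 215 in WT, a rise of 2.61 (SE 0.57, edgeR adjusted p = 0.0218), and 143 to 265 in KO+ZnO NPs, a fall of 2.27 from KO (SE 0.56, 0.0256). KO replicate 2, the lowest KO library for all 8 pigment genes, was the highest for *Gpnmb*. The macrophage sum was also highest there within KO, at 3964 CPM, and its part in *Gpnmb* was not tested.

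The machinery that builds melanosomes and moves them gave more calls of lower than of higher genes with ZnO NPs. Of 30 genes of melanosome biogenesis and transport, most of which serve lysosome-related organelles in many cell types, 3 were higher and 15 lower in the samples labelled WT+ZnO NPs than in WT (median -0.41), where 20.8% and 22.1% of all genes were. KO had 3 higher and 2 lower (-0.10, all genes 4.61% and 3.58%), KO+ZnO NPs against KO 5 lower (-0.30, all genes 8.09%), KO+ZnO NPs against the samples labelled WT+ZnO NPs 1 lower (0.19), and the interaction 3 in each direction (0.24, all genes 5.08% positive and 3.59% negative). The genes that fell included *Rab32*, a GTPase that sends enzymes to the melanosome, with 47.0, 56.9 and 47.6 CPM in WT and 23.1, 18.1 and 20.1 in the samples labelled WT+ZnO NPs (-1.30, SE 0.14, edgeR adjusted p = 7.85e-05). *Ap3m1*, a subunit of the AP-3 sorting adaptor, fell there by 0.78 (SE 0.09, 0.000152) and in KO by 0.43 (SE 0.09, 0.0233), with an interaction of 0.67 (SE 0.13, 0.0176). *Ap3s1*, another subunit, had an interaction of 0.99 (SE 0.20, 0.0194), and *Ap3d1*, one more, fell by 0.43 in KO+ZnO NPs against KO (SE 0.10, 0.0210).

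Some genes of that list were called higher in 1 comparison or another. *Mlph*, the melanophilin that links melanosomes to myosin, rose in KO (1.68, SE 0.32, edgeR adjusted p = 0.0136). *Rabggta*, which attaches lipid to Rab proteins, rose by 0.86 in the samples labelled WT+ZnO NPs (SE 0.10, 0.000122) and was 0.54 lower in KO+ZnO NPs than in them (SE 0.10, 0.0328). The cystine transporter *Slc7a11*, which feeds pheomelanin synthesis and glutathione, had 4.45, 9.69 and 6.08 CPM in WT and 20.9, 54.7 and 30.6 in KO, a rise of 2.39 (SE 0.52, 0.0214), and fell by 2.24 in KO+ZnO NPs against KO (SE 0.51, 0.0201), with an interaction of -3.29 (SE 0.71, 0.0233). *Mfsd12*, which brings cysteine into melanosomes and lysosomes, fell by 1.94 in KO+ZnO NPs against KO (SE 0.36, 0.0105).

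RNA of genes of growing hair follicles varied strongly between these libraries. The 23 of their genes that were measured, led by *Krt71* of the inner root sheath and *Tchh*, summed to 28.0, 16.6 and 25.4 CPM in WT, 1672, 5819 and 7032 in the samples labelled WT+ZnO NPs, 14397, 54.7 and 3984 in KO and 10837, 7138 and 326 in KO+ZnO NPs, and 3 of them were at 0 in all WT libraries. Of the 23, 20 were higher in the samples labelled WT+ZnO NPs and 12 in KO against WT, 8 had negative interactions, and edgeR and DESeq2 called 0 in both other comparisons (0 at an unadjusted edgeR p below 0.05 for KO+ZnO NPs against KO and 1 for KO+ZnO NPs against the samples labelled WT+ZnO NPs). WT was lowest and without overlap in both the follicle sum and the sum of the 8 pigment genes.

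Within each of the 4 groups the library with the lowest follicle sum also had the lowest pigment gene sum, and the WT libraries had the same order in both. The library with the highest sum was not the same in the other 3 groups. KO replicate 1 had the highest follicle sum of all 12 libraries and 79.3 CPM of the pigment genes, below the 201 of KO replicate 3. KO replicate 2, lowest of KO in both, had a follicle sum of 54.7 CPM, 42.5 CPM of the pigment genes and 60.0 CPM of *Kit*, all above every WT library. KO+ZnO NPs replicate 3 had the lowest follicle sum of its group, at 326 CPM, and 285 CPM of the pigment genes, above every KO library. The part of hair growth in the pigment gene differences was not tested.

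**Figure D5:**
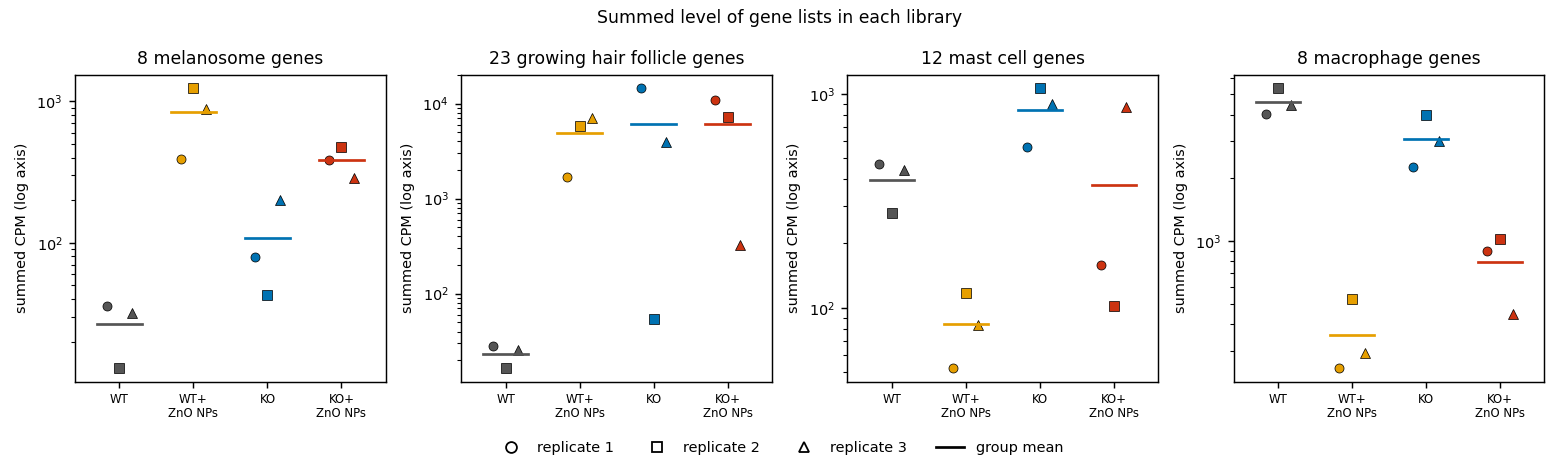
Panels plot the summed CPM (log axis) of the 8 pigment genes and of lists for growing hair follicle, mast cells and macrophages in each library, with the replicates as symbols and the group mean as a line. Pigment and follicle sums are both lowest in the 3 WT libraries and share the lowest library in each group, while KO replicate 1 tops the follicle panel at 14397 CPM with 79.3 CPM of pigment genes, and the group mean of the macrophage sum is lowest in the samples labelled WT+ZnO NPs.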

How the data were processed

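The authors deposited whole-number read counts per Ensembl gene for 12 skin libraries, without normalization. The study's methods give STAR and HTSeq on poly-A RNA, while the submitters' processing notes list HISAT2 2.0.5 and mm10; release of the annotation and strand setting are not given in the sources used here, so reads of overlapping genes may be lost or shared. Names and positions came from GENCODE on GRCm38 (52403 of 52636 genes matched). Counts were tested in R 4.3.3 with the quasi-likelihood test of edgeR 4.0.16 (TMM, filterByExpr, 1 coefficient per group, all 12 libraries), with Benjamini-Hochberg adjustment over 18822 genes and a threshold of 0.05. Steps were tested on simulated data. Each SE is approximate and comes from dividing a log2 fold change by the square root of its F value. A fold against a group with 3 counts or fewer in each library is a bound. DESeq2 1.42.0 and further alternatives are in the closing section. Replicates differed beyond sampling noise (chi-square 37.4 to 162 per degree of freedom), and same-numbered replicates were not paired.

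The members and lists were chosen with earlier results of these data known. Named besides the members were *Kitl*, *Mc1r*, *Asip*, *Pomc*, *Edn3*, *Ednrb*, *Sox10*, *Pax3* and *Gpr143*, and in each comparison the 3 called genes with the smallest adjusted p of each of 3 pigment cell lists. Of lists of other cells, counts, sums and the 2 most abundant genes are given. Of the Schwann cell list, 1 gene is not reported here.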

Additional observations from a re-analysis of the deposited data

Results flagged for a closer look

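For 7 members the log2 difference with ZnO NPs was not the same in the KO as in the WT groups by the interaction term of edgeR's quasi-likelihood fit. The interaction was -3.71 for *Tyr* (SE 0.85, adjusted p = 0.0284), -3.96 for *Pmel* (SE 0.95, 0.0309), -5.12 for *Mlana* (SE 0.74, 0.00582), -3.56 for *Slc45a2* (SE 0.87, 0.0328), -3.33 for *Slc24a5* (SE 0.79, 0.0302) and -2.36 for *Kit* (SE 0.49, 0.0205). The fitted value for *Oca2*, -6.38 (SE 1.38, 0.0231), rests on 1 or 2 counts in each WT library and is no bound. *Mlana* passed in 19 of 19 alternatives, *Kit* in 14 of 19, *Tyr* in 12 of 19 and *Oca2* in 11 of 18, while *Pmel* and *Slc24a5* passed in 8 of 19 and *Slc45a2* in 8 of 18. Y-linked transcripts were in the 3 samples labelled WT+ZnO NPs and in 0 of 3 from WT, and with these as a covariate *Mlana* kept a call at -4.27 (adjusted p = 0.0483) while the other 6 had adjusted p from 0.109 to 0.138, at -3.69 for *Tyr*, -4.18 for *Pmel*, -3.93 for *Slc45a2*, -3.25 for *Slc24a5*, -2.38 for *Kit* and -5.64 for *Oca2*. The causes were not tested.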

How the results depend on the processing

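Directions of the 8 pigment genes were the same in every comparison and alternative run. The direction turned for *Mitf* between KO+ZnO NPs and the samples labelled WT+ZnO NPs (0.084 with Y-linked transcripts as a covariate, -0.12 to 0.12 with 1 library left out), for *Kit* there (-0.37 to 0.16 with 1 left out) and for the interaction of *Mitf* (0.060 with the covariate, -0.20 to 0.034 with 1 left out), none of which had been called. In KO against WT the members called, 4, became 9 with DESeq2 and 2 with only the 6 libraries, the replicate block, the covariate or only libraries without Y-linked transcripts, and the 1540 genes called became 3003, 2794, 962 with the covariate and 694 without the Y-linked libraries. In the samples labelled WT+ZnO NPs against WT, 8085 genes became 3896 with the covariate. In KO+ZnO NPs against KO the 2 members became 1 with library size or the replicate block, 7 with DESeq2 and 0 with only the 6 libraries (7 at an unadjusted p below 0.05 by edgeR) or only the libraries without Y-linked transcripts (3), and the 2759 genes 4236 with DESeq2 and 571 with the 6 libraries. Between KO+ZnO NPs and the samples labelled WT+ZnO NPs the 0 members became 1 with library size or at least 10 counts in every library and 3 with DESeq2, and the 618 genes 2287 with DESeq2, 284 with no filter, 1 with the covariate and 0 with only the 6 libraries (3067 at an unadjusted p below 0.05 by edgeR). For the interaction the 7 members became 4 with the replicate block and 1 with the covariate, and the 1633 genes 3129 with DESeq2, 1086 with no filter and 125 with the covariate. With 1 library left out, members called ran from 1 to 7, 9 to 10, 0 to 6, 0 to 1 and 1 to 8 in these 5 comparisons in turn, and all genes from 377 to 2060, 5942 to 9095, 451 to 3195, 1 to 1609 and 461 to 1646. The cause of these moves was not tested. The replicate numbers do not pair the mice: correlations of same-numbered deviations ran from -0.34 to 0.43, with 4 of 18 over 0.1. Library size alone moved the median of all genes by 0.11 in the samples labelled WT+ZnO NPs against WT and by -0.15 in KO+ZnO NPs against them and in the interaction. Depth limits the values of *Oca2*, *Slc45a2*, *Slc24a5* and *Mlana* in WT, which had 1 to 18 counts per library there, and of other genes as low.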

Other observations

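The genes outside the members whose log2 CPM followed the mean z score of the 8 pigment genes most closely over the 12 libraries were, out of 15918 genes averaging 1 CPM or more, *Ptgds* (Pearson r 0.988), *Cldn10* (0.988), *Lef1* (0.983), *Atxn7l2* (0.983), *Miga1* (0.979), *Tspan10* (0.978), *Wnt10b* (0.978), *Znrf3* (0.978), *Mfsd2b* (0.977) and *Syt4* (0.976). With the group means taken out, these r were 0.765 to 0.912. The correlations are descriptions, since the libraries fall into groups and all values of a library share its depth and composition. *Ptgds* encodes the prostaglandin D synthase that melanocytes are known to express, *Tspan10* is a tetraspanin of pigment cells, *Lef1*, *Wnt10b* and *Znrf3* belong to Wnt signalling, and *Cldn10* lies 736 kilobases from *Dct* on chromosome 14. *Ptgds* averaged 1.18 CPM in WT, 6.03 in KO, 25.1 in KO+ZnO NPs and 71.7 in the samples labelled WT+ZnO NPs.

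By the same measure, *Trpm1* was 13th, *Gpr143* 15th, *Mc1r* 44th and *Sox10* 3950th (r 0.556), while of the hair follicle genes looked up *Krt35* was 143rd (r 0.933), *Hoxc13* 222nd (0.920) and *Krt71* 887th (0.847). Of the members kept out of the score, *Kit* had an r of 0.71 and *Mitf* one of -0.73, which were 0.58 and -0.07 with the group means taken out. *Trpm1*, the hair follicle genes and these members were looked up after the values were seen.

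Among other cells of the skin, 4 of 6 adipocyte genes, led by *Fabp4* and *Cidec*, were lower in the samples labelled WT+ZnO NPs than in WT, where their CPM summed to 658 to 1452 against 4575 to 6526, and in the groups KO and KO+ZnO NPs the sums were 1676 to 3286 and 1045 to 4024 with edgeR calling 0 in KO against WT (1 at an unadjusted p below 0.05, and 1 called by DESeq2) and in KO+ZnO NPs against KO (0 by either). Skeletal muscle genes, led by *Acta1* and *Myh1*, summed to 5677 to 6954 CPM in WT, 6478 to 24421 in the samples labelled WT+ZnO NPs, 1720.2 to 5660.0 in KO and 3371 to 19289.5 in KO+ZnO NPs, with 1 of 8 higher, 1 lower and 2 higher in the comparisons of the last 3 groups with WT, WT and KO, where 2, 3 and 7 had an unadjusted edgeR p below 0.05 and DESeq2 called 2, 2 and 6. The list of 10 skin genes, led by *Col3a1* and *Col1a1*, summed to 11067 to 18780 CPM in WT, 12130 to 28327 in the samples labelled WT+ZnO NPs, 33018 to 40848 in KO and 21566 to 31737 in KO+ZnO NPs. In the samples labelled WT+ZnO NPs 2 of them were higher and 4 lower than in WT, 1 was higher in KO+ZnO NPs than in the samples labelled WT+ZnO NPs, and edgeR called 0 in KO against WT (5 at an unadjusted p below 0.05, and 5 by DESeq2), in KO+ZnO NPs against KO (1 and 0) and for the interaction (1 and 1).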
